A study of Mus musculus with 4 samples.

Results

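Gene expression in the lens of CRYAAN101D transgenic mice was compared between the ages of 2 and 4 months. The genes described are 10893 symbols of the 20426 that had a usable locus in both CRYAAN101D libraries. A symbol was taken when its locus lay outside chromosomes X and Y, was not marked FAIL at either age and reached 1 FPKM (fragments per kilobase of transcript, scaled to the number of mapped fragments) in at least 1 of the 2 libraries. The remaining 9533 symbols stayed under 1 FPKM in both. Over all 4 libraries of the series, 11073 symbols reached that level.

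The series holds lens RNA of 2 transgenic lines on C57BL/6. CRYAAN101D animals, called N101D here, express alpha A crystallin in which asparagine is replaced by aspartate at the named position, a change that mimics deamidation. CRYAAWT animals, called WT, express the unmodified protein and so carry a transgene as well. Total lens RNA was made into 1 library per line and age. The sources used here state neither the promoter of the transgene nor the sex of the animals, nor how many lenses a library holds. With 1 library a side, every N101D difference below is a value without a replicate check.

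The lens is a body of tightly packed fiber cells covered in front by a single epithelium and wrapped in a basement membrane, the capsule. Epithelial cells near the equator leave the cell cycle, elongate into fibers, fill with crystallins and then destroy their nuclei and organelles, and growth by addition of fibers goes on through life. Alpha crystallins are chaperones, and beta and gamma crystallins are structural proteins that give the refractive index. The lens has no vessels, nerves or pigment of its own, and the iris and ciliary body lie against it.

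Defining genes of the lens were at high levels. In the N101D libraries the crystallins took 67.6% of the FPKM of the genes on stranded loci (defined below) at 2 months and 56.0% at 4 months. The 2 WT libraries stood at 72.1% and 60.6%. The totals behind these shares were 793663 and 416343 FPKM in N101D and 656933 and 457041 FPKM in WT. They include 8 high-FPKM loci described further on, at 81996 and 19058 FPKM in N101D and 18399 and 8122 FPKM in WT. The shares of the lines are therefore not directly comparable. The fiber genes Bfsp1, Lim2 and Lgsn were at 1797, 3910 and 3675 FPKM at 2 months. At 4 months they stood at 2701, 2719 and 4121 FPKM.

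The 2 N101D libraries differed in more than age. From the steps in their low FPKM values they held about 24.4 M (2 months) and 52.9 M (4 months) fragments, against 49.8 M and 34.9 M in WT. The 4-month N101D estimate rests on 415 values, and those of the other libraries on 2097 to 2657. A multiple of a true depth can fit such steps as well. At the estimated depths 1 FPKM over 1 kb of effective length rests on 24.4 fragments (95% Poisson interval 15.7 to 36.2) and 52.9 (39.6 to 69.2). The intervals cover counting error only, not error in the depth. On their stranded loci the Y-linked genes Kdm5d, Uty, Eif2s3y and Ddx3y lay between 0.0367 and 0.303 FPKM in the N101D library of 2 months. In the other 3 libraries they lay between 1.55 and 11.6 FPKM. Xist, transcribed from the inactive X of females, stood at 12.9 FPKM in that library and at 0.0744 FPKM in WT at 2 months, and its loci are marked FAIL at 4 months. Age in N101D and the sex these genes mark therefore cannot be told apart. The status flag matched at every locus between the lines of an age but changed from one age to the other at 2788 loci. All age differences below thus set levels of separately estimated tables side by side.

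Among the 10893 members 591 were at least 2-fold higher at 4 months, which is 5.43%, and 139 were at least 2-fold lower, which is 1.28%. The 2-fold threshold is a difference of 1 in log2(FPKM + 1), on which genes of low FPKM show less than their true ratio. Most genes moved little: 79.1% lay within 1.5-fold. The median difference was 0.15, and 64.7% of the members had a positive one. With the 2 libraries scaled to equal medians, the split was 442 higher and 245 lower. With equal totals over stranded loci other than crystallins, the split was 1451 and 68, and the median 0.52. The 8 high-FPKM loci described further on count in these totals, with 81996 FPKM at 2 months and 19058 FPKM at 4 months. No scaling without them was run.

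The tables list the loci of each chromosome in up to 3 runs. Of genes matched to RefSeq, 94.9% of the first run were plus-strand genes and 95.2% of the second were minus-strand genes, and these are called stranded loci. The sources used here do not state what the third run is. The rule put 320 members on third-run loci, and these are described separately at the end. Over the 10573 members on stranded loci, 564 were 2-fold higher (5.33%) and 114 were 2-fold lower (1.08%). WT showed fewer such differences over the same genes and ages, with 67 higher (0.634%) and 51 lower (0.482%). These genes were admitted by their N101D levels alone, which favours N101D differences over WT ones. Of them, 995 reached 1 FPKM in N101D only at 4 months and 209 only at 2 months. Gene groups below are counted on stranded loci.

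The direction differed with the level, taken as the larger of the 2 N101D values, which also form the difference. Of the 37 genes at 1000 FPKM or more by this level, 21 were 2-fold lower at 4 months, none was 2-fold higher, and the median difference was -1.54. These 21 include gamma crystallins, Cryba1, Crybb3, Cryba4 and Fabp5. High-FPKM loci described further on, such as Mir715, Kpna1 and Lars2, are also among them. The count was not repeated without these groups, so it does not show a trend for highly expressed genes in general. Genes from 1 to under 3 FPKM had a median difference of 0.20, with 169 of 3047 higher and 16 lower.

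**Figure D1:**
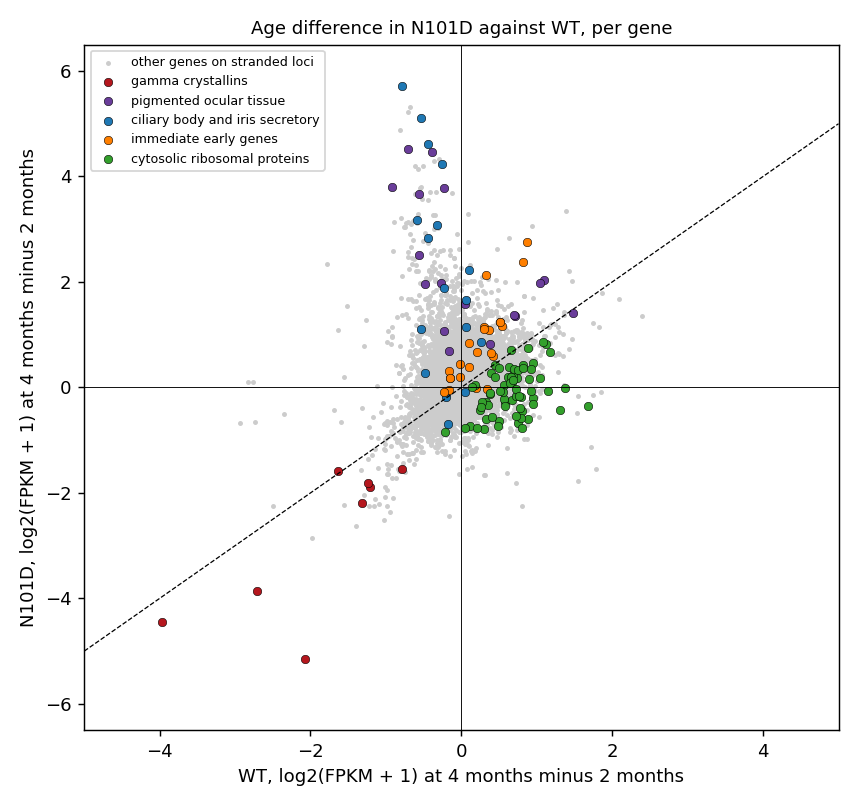
Each point is 1 gene on a stranded locus: its log2(FPKM + 1) at 4 months minus that at 2 months in WT (horizontal) and in N101D (vertical), with 5 gene lists in colour and equality as the dashed line. Gamma crystallins sit at the lower left, pigmented and ciliary genes rise vertically near a WT difference of 0, and ribosomal protein genes sit to the right of the dashed line; the gamma crystallin median turns to 0.062 and the ribosomal one to 1.93 with equal totals that include third-run loci.

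The gamma crystallins had the lowest median of all lists examined, apart from a set of high-FPKM loci described further on. They are small monomeric proteins made in fiber cells, and those made early in life pack the lens core. The stretches below, from 100 bases before to 20 bases after the RefSeq start site (GRCm38.p6), show what the promoters of the genes on chromosome 1 have in common, with Crygs of chromosome 16 as the member outside the cluster. Capitals mark TATATA, which reads the same on both strands, and CTTTTGTG, searched on both strands; the 2 motifs do not overlap.
Cryga: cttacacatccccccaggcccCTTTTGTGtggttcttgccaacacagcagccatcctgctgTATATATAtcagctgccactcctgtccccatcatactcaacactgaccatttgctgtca
Crygb: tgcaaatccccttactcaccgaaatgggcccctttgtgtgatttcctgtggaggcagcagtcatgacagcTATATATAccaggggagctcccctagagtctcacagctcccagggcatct
Crygc: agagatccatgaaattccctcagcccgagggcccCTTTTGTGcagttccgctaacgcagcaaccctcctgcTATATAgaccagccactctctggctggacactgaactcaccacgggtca
Crygd: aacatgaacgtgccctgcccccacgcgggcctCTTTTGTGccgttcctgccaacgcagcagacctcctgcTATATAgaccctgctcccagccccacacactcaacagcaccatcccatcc
Cryge: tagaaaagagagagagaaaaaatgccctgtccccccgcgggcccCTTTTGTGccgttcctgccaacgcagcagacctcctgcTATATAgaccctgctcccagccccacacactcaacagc
Crygf: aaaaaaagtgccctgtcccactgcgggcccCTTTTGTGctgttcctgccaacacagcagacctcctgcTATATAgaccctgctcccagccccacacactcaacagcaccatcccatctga
Crygs: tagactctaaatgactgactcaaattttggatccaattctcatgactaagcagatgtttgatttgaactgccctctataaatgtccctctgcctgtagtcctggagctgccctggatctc
These lie on GRCm38.p6 at chr1:65103344-65103463 (Cryga), chr1:65082271-65082390 (Crygb), chr1:65073513-65073632 (Crygc), chr1:65063421-65063540 (Crygd) and chr1:65051144-65051263 (Cryge), all on the minus strand. Crygf lies at chr1:65926422-65926541 on the plus strand and Crygs at chr16:22811391-22811510 on the minus strand. In windows from 250 bases before to 50 after the start site, TATATA stood in 7 of the 8 gamma crystallin genes and in 5.67% of all 32851 RefSeq windows. CTTTTGTG stood in 5 of the 8 and in 1.37% of all windows. A match is a description of the letters and not a binding site.

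All 8 gamma crystallins were 2-fold lower at 4 months in N101D, against 1.08% of the genes on stranded loci, and 7 of the 8 were 2-fold lower in WT. Their median difference was -2.03 in N101D and -1.47 in WT, while the median of all genes was 0.15 and -0.01. Their summed level went from 222139 to 54464 FPKM, or from 41.4% to 23.4% of all crystallin FPKM. In WT the sum went from 184747 to 76518 FPKM and the share from 39.0% to 27.6%. This direction held with equal medians (-2.26), quantile normalization (-1.21) and equal totals of stranded loci (-1.55), and turned to 0.062 with equal totals that include third-run loci, where the median of all members is 1.75.

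Cryga was at 1700 FPKM at 2 months and 46.7 FPKM at 4 months in N101D, and at 1026 and 242 FPKM in WT. It had the widest N101D difference of the family, -5.16 against -2.08 in WT. Crygf went from 9344 to 425 FPKM (-4.46), with 8052 and 513 FPKM in WT. Cryge went from 11891 to 814 FPKM (-3.87), with 10250 and 1571 FPKM in WT. In these 3 genes both 2-month libraries lay above both 4-month libraries. The share of all genes for which this holds was not counted. Cryge and Crygf are nearly identical in sequence, so how reads were split between them is uncertain.

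The other 5 members had smaller differences. Crygb was at 84375 and 18552 FPKM in N101D (-2.19) and at 67691 and 27278 FPKM in WT. Crygc was at 39991 and 10830 FPKM (-1.88), against 33612 and 14534 FPKM in WT. Crygd was at 32111 and 9121 FPKM (-1.82), against 30332 and 12807 FPKM in WT. Again the ages did not overlap across the lines. Crygs, which is expressed into adult life, went from 42594 to 14632 FPKM (-1.54) in N101D and from 33635 to 19526 FPKM in WT. Crygn, a distant relative with features of both beta and gamma crystallins, was at 133 and 43.4 FPKM (-1.59) against 149 and 47.6 FPKM in WT.

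**Figure D2:**
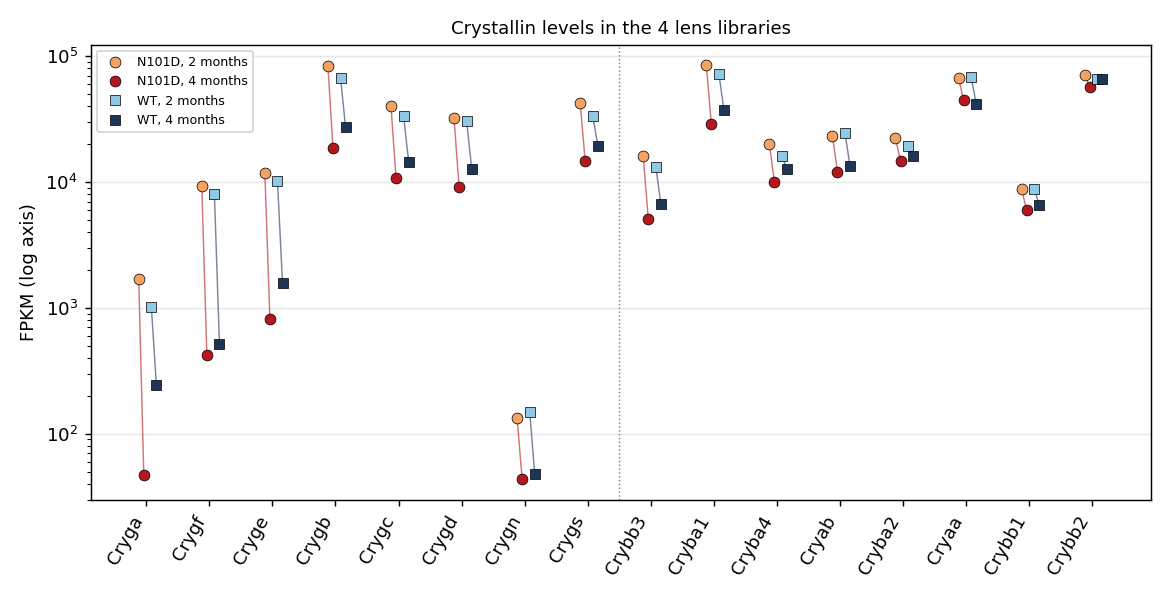
FPKM on a log axis of the 8 gamma crystallins (left of the dotted line) and the 8 alpha and beta crystallins (right) in each of the 4 libraries, 1 point per library with a line joining the ages of a line. Every gamma crystallin is lower at 4 months in both lines as deposited, with Cryga going from 1700 to 46.7 FPKM in N101D; with equal totals that include third-run loci the gamma median is 0.062, and the alpha and beta median is 1.32, or 0.69 with quantile normalization.

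Alpha and beta crystallins were lower by less as deposited, with a median of -0.77 in N101D and -0.56 in WT, but this direction turned to 0.69 with quantile normalization and to 1.32 with equal totals that include third-run loci. Of the 8, 3 were 2-fold lower in N101D and none in WT. Cryba1 was at 84766 and 28934 FPKM (-1.55), with 72740 and 37223 FPKM in WT. Crybb3 was at 16060 and 5119 FPKM (-1.65), with 13216 and 6689 FPKM in WT. Cryba4 was at 20125 and 10049 FPKM (-1.0), with 16032 and 12776 FPKM in WT. In each of the 3 the N101D library of 2 months was the highest and that of 4 months the lowest. Cryaa, whose product is the protein altered in this line, was at 67372 and 44741 FPKM (-0.59), close to the WT values of 68167 and 41937 FPKM, and the sources do not state whether transgene reads count toward it. Its partner chaperone Cryab was at 23422 and 12119 FPKM (-0.95), with 24459 and 13346 FPKM in WT. Crybb2, the major beta crystallin of the adult lens, moved least, from 71462 to 56932 FPKM (-0.33).

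Other genes of the fiber cell divided. In the list of fiber membrane genes, 3 of 13 were 2-fold lower, none was 2-fold higher, and the median was -0.52 (WT -0.15), which moved to -0.04 with equal totals of stranded loci and to 1.57 with equal totals that include third-run loci. Birc7, the gene for livin, an inhibitor of apoptosis, was at 288 and 120 FPKM (-1.26), with 243 and 147 FPKM in WT. Fabp5, a fatty acid binding protein, was at 1449 and 696 FPKM (-1.06), with 1367 and 1093 FPKM in WT. Hspb1, the small heat shock protein 27 gene, lay the other way at 384 and 645 FPKM (0.75), with 352 and 667 FPKM in WT. So Hspb1 lay alike in the 2 lines at each age.

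None of the 13 beaded filament and membrane skeleton genes passed 2-fold. Bfsp1, the filensin gene, was at 1797 and 2701 FPKM, and Bfsp2, the phakinin gene, at 1618 and 1537 FPKM. Among 11 genes of fiber denucleation and organelle loss, 1 was 2-fold lower: Dnase2b, the nuclease that degrades fiber DNA, at 93.7 and 45.9 FPKM (-1.01), with 84.8 and 62.0 FPKM in WT. Of 20 lens transcription factors, 1 was 2-fold higher, Six6 at 0.249 and 1.75 FPKM (1.14), and the list median was 0.09. Genes of the cell cycle held none past 2-fold among 19, with a median of -0.16 in N101D and -0.17 in WT.

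Capsule collagen genes were lower at 4 months in both lines as deposited, though Col4a1 turned to 0.90 with equal totals that include third-run loci. Col4a1, a chain of the collagen IV network, was at 542 and 238 FPKM in N101D (-1.19) and at 433 and 213 FPKM in WT (-1.02). Col4a2 was at 251 and 129 FPKM (-0.95), and Col4a4 at 65.7 and 34.4 FPKM (-0.91). Over the 15 capsule genes 4 were 2-fold higher, 1 was 2-fold lower, and the median was -0.06 (WT -0.55). The higher ones were Tinag, Nid2, Lamb2 and Agrn. Tinag, a basement membrane glycoprotein, was at 1.75 and 7.73 FPKM (1.67) and, in WT, at 1.29 and 8.71 FPKM (2.09).

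Genes that passed 2-fold the same way in both lines numbered 25 of the 564 higher and 27 of the 114 lower. This division by the WT libraries was chosen after the values were seen. The 27 include 7 gamma crystallins. Pgam2, the muscle form of the glycolytic enzyme phosphoglycerate mutase, was at 75.6 and 15.2 FPKM in N101D (-2.24) and at 114 and 19.3 FPKM in WT (-2.50). Tnfaip6, a hyaluronan-binding secreted protein, was at 9.18 and 0.404 FPKM (-2.86), with 4.99 and 0.525 FPKM in WT. Dpys, an enzyme of pyrimidine breakdown, was at 19.2 and 2.27 FPKM (-2.63), with 15.1 and 5.13 FPKM in WT. In all 3 the ages did not overlap across the lines. Choosing genes 2-fold lower in both lines favours this, and its share over all genes was not counted.

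Among those higher in both lines, Prdx6, a peroxiredoxin that reduces phospholipid peroxides, was at 60.2 and 167 FPKM in N101D (1.46) and at 73.7 and 157 FPKM in WT (1.08). Gltscr2, a nucleolar protein gene, was at 17.3 and 39.6 FPKM, with 17.1 and 39.3 FPKM in WT. Obfc2b, a single-stranded DNA binding protein gene, was at 34.0 and 76.3 FPKM, with 31.4 and 77.7 FPKM in WT. For Gltscr2 and Obfc2b the 2 lines nearly coincided at both ages. Psca, a surface protein listed here with cornea and conjunctiva genes, was at 1.49 and 7.58 FPKM (1.78), with 1.2 and 7.04 FPKM in WT. Krt12, the keratin of corneal epithelium, was at 0.816 and 17.5 FPKM (3.35), with 2.23 and 7.48 FPKM in WT. Of the 9 cornea and conjunctiva genes, 4 were 2-fold higher in N101D and 2 in WT, with a median of 0.75 that turned to -0.10 over genes of status OK. Their summed level went from 682 to 568 FPKM in N101D and from 559 to 528 FPKM in WT. Their part in the result was not tested.

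The design allows 1 test that uses age in both lines: a limma fit with age and line as additive terms over 11073 genes, each line standing in for a replicate of the other, with 1 residual degree of freedom. At a Benjamini-Hochberg adjusted p under 0.05 it called 1 gene higher at 4 months (0.00903%) and 0 lower (0%), while 696 genes were higher and 352 lower at an unadjusted p under 0.05. The called gene was Col4a3 on a third-run locus listed at 0 in both 2-month libraries (adjusted p = 0.000278), whereas its stranded locus stood at 62.5 FPKM at 2 months and 42.7 FPKM at 4 months in N101D. Next came Pgam2 with a log2 age difference of -2.37 (SE 0.163) and Crygf with -4.21 (SE 0.306), both at limma adjusted p = 0.205. Of the 7 alternative fits run, 5 also called 1 gene, the one with equal totals that include third-run loci called 3, and the one with equal totals of stranded loci called 134. In both fits with equal totals the prior degrees of freedom were infinite. Each gene was then given a spread set by its level alone, with none of its own.

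**Figure D3:**
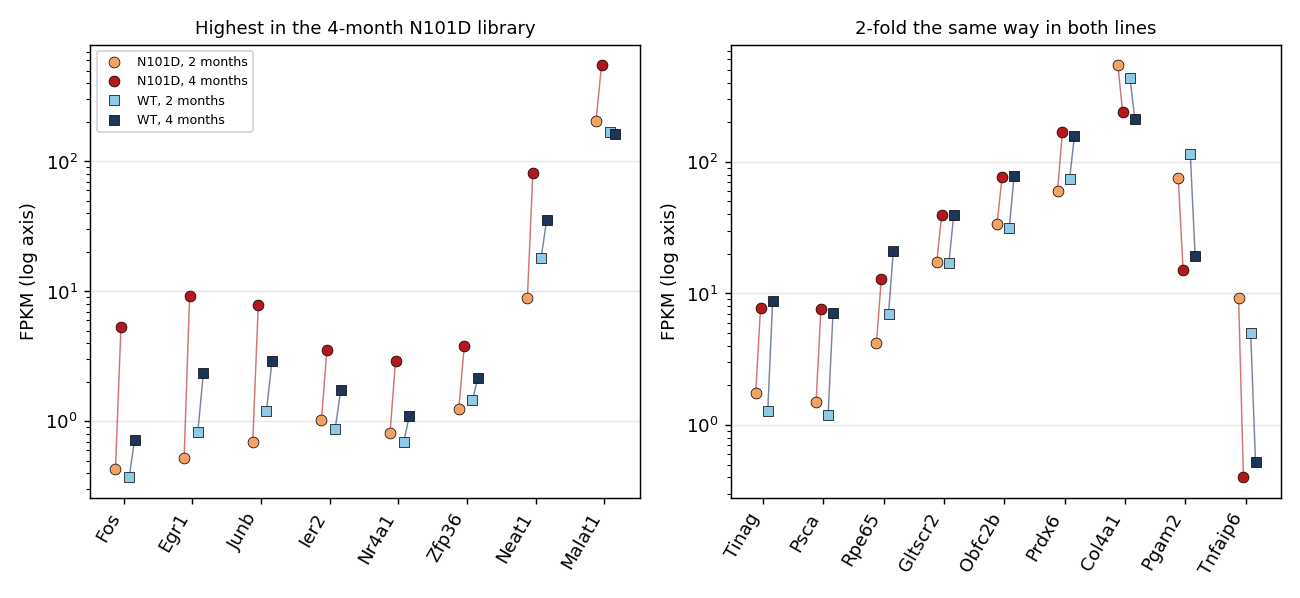
FPKM on a log axis in each of the 4 libraries, 1 point per library, for genes at their highest in the N101D library of 4 months (left) and for genes 2-fold different the same way in both lines (right). Fos stands at 5.29 FPKM in that library against 0.374 to 0.726 FPKM in the other 3, while Prdx6 goes from 60.2 to 167 FPKM in N101D and from 73.7 to 157 FPKM in WT.

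The genes higher at 4 months were set beside WT to show where both N101D libraries stood. For 540 of the 564 the N101D library of 2 months was the lowest of the 4, and for 359 that of 4 months was the highest. Choosing genes by this difference favours both counts. The N101D level lay within 2-fold of WT at both ages for 496 of them at 4 months and for 177 at 2 months. In 251 of them the N101D library of 2 months stood at least 2-fold below the other 3 while those 3 lay within 2-fold of one another. That same pattern with the N101D library of 4 months standing high held for 5 genes. In WT the 564 genes had a median age difference of -0.10. Of the 114 lower genes, 105 were at their highest of the 4 libraries in N101D at 2 months and 88 at their lowest in N101D at 4 months. Their level was within 2-fold of WT at both ages for 68 at 4 months and for 42 at 2 months, and their WT median was -0.68.

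Genes known from pigmented tissue of the eye were among those low in the N101D library of 2 months. Of 17 on stranded loci, 15 were 2-fold higher at 4 months against 5.33% of all genes, none was lower, and the median was 1.98 (WT -0.23). Their summed level was 70.8 FPKM in N101D at 2 months, 497 FPKM at 4 months, and 505 and 472 FPKM in WT. None of the 17 was at 0 in the N101D library of 2 months. The medians remained positive under every scaling run, between 1.48 and 3.26. In bulk RNA, fewer cells of a type and less RNA per cell cannot be told apart.

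Pigment cells share a promoter element, the M box, read by the melanocyte factor MITF. The 60-base stretches below (GRCm38.p6) carry it in the promoters of 3 enzymes of melanin synthesis, with TCATGTG in capitals; both strands were searched.
Tyrp1: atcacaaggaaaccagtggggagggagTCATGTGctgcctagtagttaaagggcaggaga
Tyr: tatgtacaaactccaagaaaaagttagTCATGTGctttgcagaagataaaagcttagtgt
Dct: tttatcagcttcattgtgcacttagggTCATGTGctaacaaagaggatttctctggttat
They lie at chr4:80834139-80834198 on the plus strand, chr7:87493502-87493561 on the minus strand and chr14:118052365-118052424 on the minus strand. The motif stood in 5 of the 15 pigmented-tissue genes with a window and in 3.77% of all windows. Dct, the dopachrome tautomerase gene, was at 3.17 FPKM at 2 months and 95 FPKM at 4 months in N101D (4.53), with 138 and 84.2 FPKM in WT. Tyrp1 was at 1.97 and 37.0 FPKM (3.68), with 45.1 and 30.2 FPKM in WT. Tyr, the rate-limiting tyrosinase, was at 0.262 and 3.90 FPKM (1.96), with 5.94 and 3.95 FPKM in WT. For all 3 the N101D library of 2 months alone stood apart.

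The structural pigment genes were likewise lowest in the N101D library of 2 months. Pmel, which forms the fibrils of the melanosome, was at 1.75 and 37.1 FPKM in N101D and at 47.6 and 24.7 FPKM in WT. Mlana, another melanosomal protein, was at 0.596 and 20.9 FPKM, with 26.8 and 22.6 FPKM in WT. Gpnmb, a glycoprotein of pigment cells and macrophages, was at 2.59 and 77.8 FPKM (4.46), with 81.8 and 62.0 FPKM in WT. A pair of genes known from the retinal pigment epithelium, Rpe65 and Rgr, was more than 2-fold higher at 4 months in both lines. Rpe65, the isomerase of the visual cycle, was at 4.18 and 12.8 FPKM (1.42), with 6.96 and 21.2 FPKM in WT (1.48). Rgr, an opsin of that tissue, was at 9.97 and 42.3 FPKM (1.98), with 22.4 and 47.2 FPKM in WT (1.04).

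Secretory genes of the ciliary body and iris followed the pigment genes, with 13 of 19 2-fold higher, none lower, and a median of 1.66 (WT -0.23). Their sum was 1572 FPKM at 2 months and 2683 FPKM at 4 months in N101D, with 2875 and 2427 FPKM in WT. Gpx3, a secreted glutathione peroxidase, had the widest difference of all genes on stranded loci, 3.07 and 212 FPKM (5.71), with 239 and 138 FPKM in WT. Penk, the enkephalin precursor, was at 1.90 and 98.5 FPKM (5.10), with 97.1 and 66.6 FPKM in WT. Apoe, the lipid carrier, was at 23.4 and 457 FPKM (4.23), with 462 and 386 FPKM in WT. Each of these was lowest in N101D at 2 months by a wide margin and within 2-fold across the other 3 libraries.

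Slc26a4, an anion exchanger, was at 0.0473 and 24.6 FPKM (4.61), with 23.6 and 17.2 FPKM in WT. Zic2, a zinc finger factor, was listed at 0 at 2 months and at 6.13 FPKM at 4 months, with 6.03 and 4.18 FPKM in WT. In the list of 18 ion and water transport genes 3 were 2-fold higher, none was lower, and the median was 0.15. Ptgds, a prostaglandin synthase, was at 157 and 583 FPKM (1.89), with 575 and 490 FPKM in WT.

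**Figure D4:**
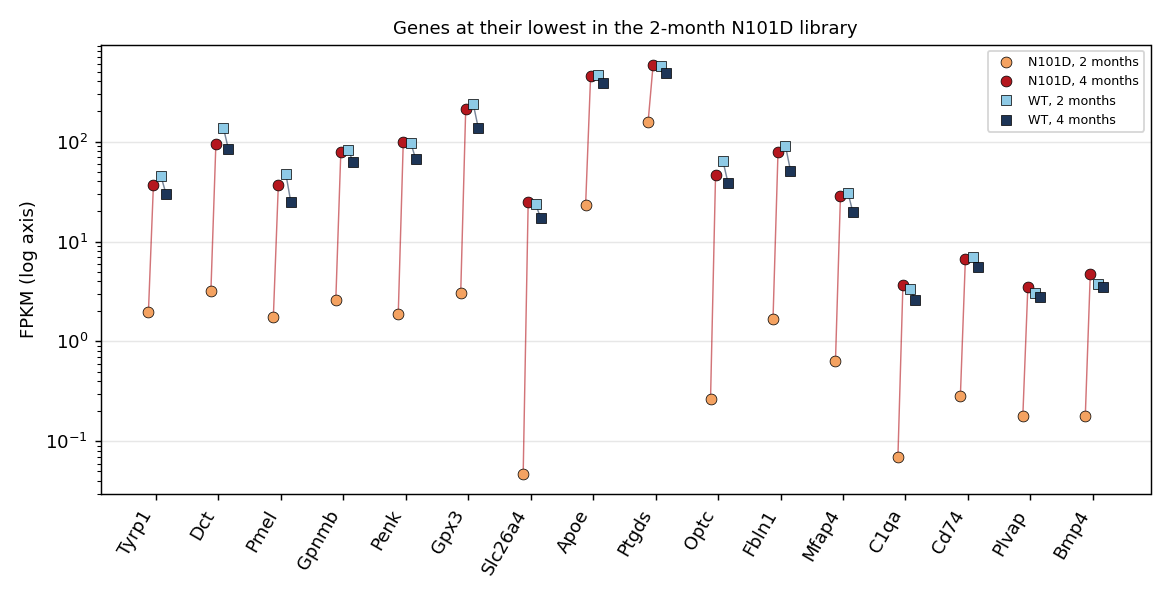
FPKM on a log axis of 16 genes in each of the 4 libraries, 1 point per library with a line joining the ages of a line. The N101D library of 2 months is the lowest for every gene shown, for example 3.17 FPKM for Dct against 84.2 to 138 FPKM in the other 3; the genes were chosen after their values were seen.

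Genes of stromal and fibrillar matrix were higher at 4 months in 13 of 18 cases and lower in 1, with a median of 1.79 (WT -0.34). This N101D median was 0.81 with a pseudocount of 5 FPKM in place of 1 FPKM, and 3.44 with one of 0.1 FPKM. With no filter on low values it was 1.21, and over members at 5 FPKM or more 2.48. Optc, the gene of the vitreous and ciliary proteoglycan opticin, was at 0.268 and 46.1 FPKM (5.21), with 63.3 and 38.6 FPKM in WT. Fbln1, the matrix protein fibulin 1, was at 1.67 and 78.1 FPKM (4.89), with 90.3 and 51.1 FPKM in WT. Mfap4, a microfibril-associated protein, was at 0.632 and 28.8 FPKM (4.19), with 30.6 and 19.6 FPKM in WT. Fbn1, the fibrillin of the zonule that suspends the lens, was at 0.248 and 9.92 FPKM (3.13), with 15.6 and 7.93 FPKM in WT. All 4 N101D levels at 4 months lay between the 2 WT levels.

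Ogn, the proteoglycan osteoglycin, was the exception, at 130 and 59.1 FPKM (-1.12), with 104 and 81.7 FPKM in WT. The collagen I genes moved in opposite ways in the 2 lines. Col1a1 was at 0.231 and 5.22 FPKM in N101D and at 4.44 and 0.586 FPKM in WT. Col1a2 was at 1.69 and 5.55 FPKM, and at 8.63 and 3 FPKM in WT. Of 13 metalloproteinases and their inhibitors 4 were 2-fold higher and none lower, among them Timp3, an inhibitor bound to matrix, at 33 and 69.7 FPKM (1.06).

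Immune and vascular genes were low in the same library. Macrophage and leukocyte genes were 2-fold higher at 4 months in 8 of 9 cases, with none lower and a median of 1.09 (WT -0.04). This N101D median was 0.33 with a pseudocount of 5 FPKM and 2.98 with one of 0.1 FPKM. The list held 18 genes, and those under 1 FPKM in both N101D libraries were left out. A gene near 0 at 2 months had to reach 1 FPKM at 4 months, which favours a difference near 1. The count of 8 of 9 is therefore partly set by the filter. With no filter on low values the median was 0.92. These genes summed to 2.49 FPKM at 2 months and 27.8 FPKM at 4 months, against 20.7 and 26.0 FPKM in WT, with none at 0. Csf1r, the receptor of the macrophage growth factor, was at 0.176 and 1.76 FPKM, with 1.51 and 1.37 FPKM in WT. C1qa, a subunit of the first complement component, was at 0.0699 and 3.69 FPKM (2.13), with 3.32 and 2.58 FPKM in WT. Cd74, the invariant chain of MHC class II, was at 0.284 and 6.67 FPKM (2.58), with 7 and 5.56 FPKM in WT. At the depth of the N101D library of 2 months such levels rest on few fragments.

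Complement genes were 2-fold higher in 5 of 12 cases and MHC and antigen presentation genes in 6 of 15, with none lower in either and medians of 0.49 and 0.84. The complement median was 0.091 over genes of status OK and turned to -0.61 over members at 5 FPKM or more. Of 20 interferon-induced genes 4 were higher and none lower, with a median of 0.53 that turned to -0.12 over the genes of status OK in both libraries. Ifitm3, which blocks virus entry, was at 2.49 and 18.2 FPKM (2.46), with 25.5 and 15.9 FPKM in WT. B2m, the light chain of MHC class I, was at 6.88 and 32.5 FPKM (2.09), with 34.0 and 25.5 FPKM in WT. Of 10 vessel genes 6 were higher and none lower, with a median of 1.22 (WT -0.01). This median was 0.16 over genes of status OK, 0.22 over members at 5 FPKM or more and 0.38 with a pseudocount of 5 FPKM. With no filter on low values it was 0.66, and with a pseudocount of 0.1 FPKM 2.38. Their sum was 18.4 and 36.5 FPKM in N101D and 32.9 and 30.1 FPKM in WT. Plvap, a protein of fenestrated endothelium, was at 0.180 and 3.48 FPKM (1.92), with 3.04 and 2.76 FPKM in WT.

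Blood, muscle and retina genes did not share this profile. None of 6 blood cell genes passed 2-fold in N101D, where the median was -0.11, while 4 were lower in WT, with a median of -2.75. Hba-a1, an alpha globin, was at 37.7 and 40.4 FPKM in N101D and at 112 and 14.9 FPKM in WT. Of 9 muscle genes, 2 were higher, Tagln and Myh11 of smooth muscle. None of 25 retina genes passed 2-fold in N101D, with a median of 0.14 (WT 0.68). Their sum was 700 and 766 FPKM, against 770 and 1244 FPKM in WT. The part of these tissues in the other differences was not tested.

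Signalling and epithelial genes contained a few of the same kind. Of 43 genes of FGF, BMP, Notch and Wnt signalling 6 were 2-fold higher and none lower, with a median of 0.17. Bmp4, a ligand needed for lens induction, was at 0.179 and 4.78 FPKM (2.29), with 3.79 and 3.53 FPKM in WT. Dll1, a Notch ligand, was at 0.513 and 5.30 FPKM (2.06), with 4.9 and 3.64 FPKM in WT. Hes1, a Notch target, was at 5.38 and 20.1 FPKM (1.73), with 14.1 and 12.6 FPKM in WT. Of 16 lens epithelium genes 2 were higher, Cldn1 and Igfbp5, and 1 was lower, Npnt, with a median of 0.31. Igfbp5, a binding protein of insulin-like growth factors, was at 8.58 and 29.9 FPKM (1.69), with 35.2 and 19.9 FPKM in WT.

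Most antioxidant genes did not pass 2-fold. Of 36 on stranded loci 8 were 2-fold higher, a larger share than the 5.33% of all genes on stranded loci. None was lower, and the median was 0.02. In 5 of the 8 the N101D library of 2 months alone stood low. Sod3, the extracellular superoxide dismutase, was at 0.155 and 21.7 FPKM (4.30), with 20.5 and 15.8 FPKM in WT, and so was low in 1 library alone. The metallothionein genes Mt1 and Mt2 were at 7.16 and 31.5 FPKM and at 1.69 and 11.9 FPKM, with 23.5 to 28.2 and 7.70 to 7.76 FPKM in WT. Sod1, the cytosolic superoxide dismutase, was at 29.5 and 61.5 FPKM (1.03), with 37.5 and 69.5 FPKM in WT. Gsto1, a glutathione transferase of the omega class, was at 22.5 and 47.8 FPKM (1.06), with 24.4 and 42.9 FPKM in WT. Sod1, Gsto1 and Prdx6 were thus higher at 4 months in both lines.

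Several immediate early genes were at their highest in the N101D library of 4 months. They encode factors that cells transcribe rapidly after a stimulus. Of 21, 8 were 2-fold higher and none lower, with a median of 0.65 in N101D and 0.29 in WT. Fos was at 0.427 and 5.29 FPKM (2.14), with 0.374 and 0.726 FPKM in WT. Egr1, a zinc finger factor, was at 0.519 and 9.24 FPKM (2.75), with 0.830 and 2.36 FPKM in WT. Junb, a partner of Fos, was at 0.695 and 7.86 FPKM (2.39), with 1.21 and 2.90 FPKM in WT. In all 3 the WT library of 4 months was also above both 2-month libraries, but below N101D.

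Among nuclear noncoding RNAs, Neat1 and Malat1 were also at their highest in that library. Neat1, the scaffold of paraspeckles, was at 8.90 and 81.4 FPKM (3.06), with 18.0 and 35.4 FPKM in WT. Malat1, a nuclear speckle RNA, was at 205 and 550 FPKM (1.42), with 169 and 161 FPKM in WT. Of 11 noncoding genes 4 were higher and none lower, Meg3 and Snhg11 being the others, and the median was -0.07. Besides Fos and Malat1, the genes standing high in N101D at 4 months alone, named after their values were seen, were Lama3, a laminin chain, at 3.40 and 10.1 FPKM (1.33), with 3.66 and 4.46 FPKM in WT, and the uncharacterised 0610012G03Rik and 4930562F07Rik. Standing low in that library alone were Gsto2, Orc5 and Lnx1. Orc5, a subunit of the origin recognition complex, was at 9.08 and 3.23 FPKM (-1.25), with 7.73 and 8.59 FPKM in WT.

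Housekeeping groups had medians near 0 in N101D. None of 68 cytosolic ribosomal protein genes passed 2-fold, and 28 had a positive difference, with a median of -0.09. In WT 8 of them were 2-fold higher, 67 were positive and the median was 0.67. The N101D median turned to 0.38 with equal totals of stranded loci and to 1.93 with equal totals that include third-run loci. Of 48 nuclear genes of oxidative phosphorylation 2 were 2-fold lower, none was higher, and the median was -0.15 (WT 0.03), turning to 0.32 with equal totals of stranded loci. The 2 were Ndufa4 at 230 and 108 FPKM (-1.08), with 179 and 150 FPKM in WT, and Cox6c at 124 and 59.9 FPKM (-1.03), with 96.1 and 96.3 FPKM in WT. Both encode small subunits of the respiratory chain.

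Stress and turnover lists held few genes past 2-fold, as did all genes on stranded loci (5.33% higher, 1.08% lower). Counts this small do not set these lists apart from other genes. Of 23 genes of the unfolded protein response 1 was higher, Ddit3, the gene of the transcription factor CHOP, at 4.62 and 11 FPKM (1.09), with 6.36 and 11.2 FPKM in WT. None of 24 cytosolic heat shock genes, 34 proteasome genes or 42 mitochondrial ribosomal genes passed 2-fold, with medians of 0.18, -0.09 and 0.05. Of 34 genes of autophagy and the lysosome 1 was higher, the protease gene Ctsh, at 2.20 and 9.35 FPKM (1.70). Of 24 apoptosis and p53 target genes 1 was lower, the death receptor gene Fas, at 20.9 and 8.38 FPKM (-1.23), with 17.6 and 11.9 FPKM in WT.

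Metabolic and ion lists also held few, beside the same shares of 5.33% higher and 1.08% lower over all genes on stranded loci. Of 23 genes of glycolysis and the sorbitol pathway, 1 was higher and 1 lower. Ldhb, a lactate dehydrogenase subunit, was at 4.29 and 25.5 FPKM (2.32), with 24.1 and 26.1 FPKM in WT. Slc16a3, a lactate exporter, was at 10.6 and 4.45 FPKM (-1.09), with 7.99 and 5.06 FPKM in WT. Of 25 calcium handling and calpain genes 1 was higher, the calcium sensor Stim1, at 2.72 and 8.83 FPKM (1.40). None of 22 sterol genes and none of 7 replication-dependent histone genes passed 2-fold.

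**Figure D5:**
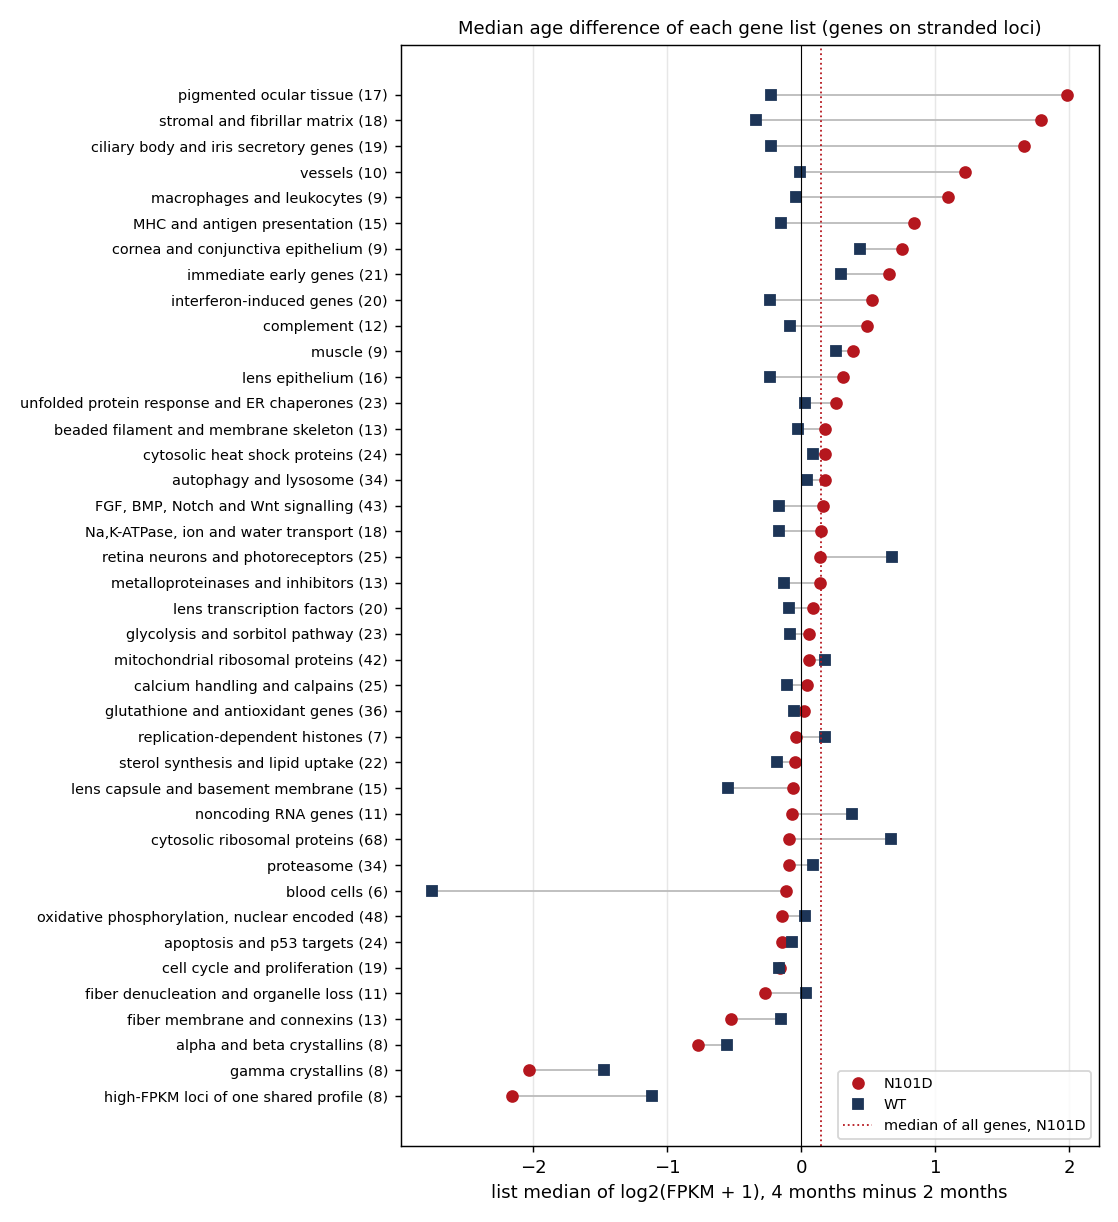
Median of log2(FPKM + 1) at 4 months minus 2 months over the genes of each of the 40 lists, in N101D (circles) and WT (squares), with the number of genes on stranded loci in brackets and the N101D median of all genes, 0.15, dotted. The pigmented-tissue list is at 1.98 in N101D and -0.23 in WT and the gamma crystallins at -2.03 and -1.47; with equal totals that include third-run loci 14 of the 15 negative medians turn positive, and with equal totals of stranded loci 11 do. The interferon and cornea medians turn negative over genes of status OK, as does the complement median over members at 5 FPKM or more.

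A set of 8 loci of very high FPKM shared a single profile. All 8 were 2-fold lower at 4 months, with differences between -2.35 and -1.95, and their sum went from 81996 to 19058 FPKM in N101D and from 18399 to 8122 FPKM in WT. They carry the symbols of unrelated genes, among them Mir715 at 34147 and 8344 FPKM, Kpna1 at 8477 and 1786 FPKM and Lars2 at 5349 and 1122 FPKM. The list was put together from values of these libraries, so its common direction is no support for anything. Whether these values are transcripts of the named genes was not tested.

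The 320 members on third-run loci had a median of 0.11, with 27 at least 2-fold higher and 25 at least 2-fold lower. Their summed FPKM was 4352110 at 2 months and 892745 at 4 months in N101D, far above the 793663 and 416343 FPKM of all stranded members. A few loci of extreme value made up most of it. Tspan5 was listed at 2123210 and 371150 FPKM, while its stranded locus stood at 26.5 and 29.9 FPKM. Pcsk2 was listed at 689886 and 4815 FPKM, while its stranded locus stood at 0.656 and 0.940 FPKM. For Tspan5 and Pcsk2 the stranded loci gave differences of less than 2-fold. Some other symbols passed 2-fold on their stranded loci, such as Pde5a (1.49) and Shoc2 (-1.31). Third-run values were left out of the gene groups above whatever the stranded loci showed.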

How the data were processed

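RNA of mouse lenses was sequenced in 4 libraries, 1 per transgenic line and age. FPKM values were deposited by the authors as 1 table per library with 44597 loci each, made, per the submitters' processing notes, on build mm9 with TopHat 1.2.0, Cufflinks 1.0.3, CASAVA 1 and Cuffdiff. The sources used here give no settings, annotation, Cuffdiff version or use of strand, so reads of overlapping and antisense genes cannot be told apart. Rows were matched on locus identifier. Of 29109 loci with a symbol, 326 were FAIL in an N101D library, 1246 others lay on X or Y and 32 had symbols turned into dates, and these were left out. For 3201 members with several loci that of highest mean FPKM was used, and 338 symbols join several genes.

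Differences are log2(FPKM + 1) with no further scaling. Named genes are the 15 highest and lowest differences at 10 FPKM or more, the 10 largest FPKM gains and losses, the 10 largest gaps to the WT age difference each way, the list members past 2-fold or of highest level, and the 10 lowest p for age each way; a selection is printed, and some genes are not reported here. The members and the 40 lists were chosen with earlier results of these data known. The age fit used limma 3.58.1 (R 4.3.3) with a mean-dependent prior. It was tried on simulated data with the same spread for every gene, which does not show how it performs on these libraries. The p-values of the fit rest on the gap between the N101D and WT age differences, moderated by the prior. That gap may be technical. Depth came from whole-read steps: 86.9% to 94.4% of the values used lay within 0.05 of a whole read. Counts were not rebuilt, since most loci hold several transcripts. Promoter sequences are from RefSeq, GRCm38.p6, and coordinates of loci on mm9 are not mixed with them. Alternatives varied the pseudocount, the filter, the choice of locus, the status and the scaling.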

Additional observations from a re-analysis of the deposited data

Results flagged for a closer look

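Col1a1, Col1a2, Slc39a5 and Cgn were 2-fold higher at 4 months in N101D and 2-fold lower in WT, and Dffb, Wwox and Dock2 were the reverse. The N101D age difference minus that of WT, in log2(FPKM + 1), was 4.11 for Col1a1, 2.55 for Col1a2, 3.06 for Slc39a5 and 2.73 for Cgn. It was -2.84 for Dffb, -3.33 for Wwox and -3.32 for Dock2. With 1 library per group the differences between the lines were not tested. Wwox was at 8.84 and 2.37 FPKM in N101D and at 1.23 and 6.69 FPKM in WT. Cgn, the tight junction gene cingulin, was at 4.08 and 9.86 FPKM in N101D and at 8.71 and 2.14 FPKM in WT. Slc39a5 was at 0 and 1.91 FPKM in N101D and at 1.87 and 0 FPKM in WT.

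Xist, on a chromosome left out of the comparison, stood at 12.9 FPKM in the N101D library of 2 months, above the 0.0744 FPKM of WT at that age.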

How the results depend on the processing

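The counts of 591 higher and 139 lower genes rest on low values and on scaling. A pseudocount of 0.1 FPKM gave 1166 and 252, one of 5 FPKM gave 136 and 68, and 5 FPKM as the minimum gave 306 higher. Status OK in both libraries gave 264 higher, quantile normalization 353 higher, and equal medians 245 lower. Equal totals without the crystallins gave 10277 and 8 with third-run loci included and, in a version added after seeing the data, 1451 and 68 over stranded loci. Taking stranded loci only, also added later, gave 572 higher and 117 lower. The median of all genes was 0.024 without a filter, -0.029 with equal medians, -0.034 with quantile normalization, 1.75 with equal totals including third-run loci and 0.52 with stranded ones.

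A gap to the WT age difference of at least 1 either way was found for 667 and 150 genes. It was 1145 and 258 at 0.1 FPKM, 167 and 61 at 5 FPKM, 305 and 96 for genes at 5 FPKM or more, and 321 and 93 for status OK. Equal medians gave 253 below, quantile normalization 414 above, equal totals 8802 and 22, and equal totals of stranded loci 1287 and 58. The age term called 3 genes with equal totals and 134 over stranded loci, in fits where no gene kept a spread of its own. The causes were not tested.

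Equal totals that include third-run loci shift log2 FPKM at 4 months against 2 months by 2.10, and log2(FPKM + 1) by less at low levels. Equal totals of stranded loci shift log2 FPKM by 0.48. Third-run members make up most of the larger totals: in N101D they summed to 4352110 FPKM at 2 months and 892745 FPKM at 4 months. Stranded members without the crystallins summed to 257172 and 183253 FPKM. Of these sums the 8 high-FPKM loci of one shared profile made up 81996 and 19058 FPKM. With third-run loci included, medians turned to 1.32 (alpha and beta crystallins), 0.062 (gamma) and 1.57 (fiber membrane). Single genes turned to 1.10 for Cryba4, 1.05 for Dnase2b, 1.04 for Cox6c, 1.04 for Fabp5, 1.00 for Ndufa4, 0.73 for Slc16a3, 0.90 for Npnt, 0.95 for Ogn, 0.90 for Col4a1, 0.71 for Fas, 0.83 for Birc7, 0.56 for Crygs, 0.55 for Cryba1, 0.47 for Crygn, 0.45 for Crybb3, 0.28 for Crygd, 0.21 for Crygc, 0.32 for Dffb, 0.36 for Gsto2, 0.50 for Orc5, 0.16 for Wwox and 0.064 for Mir715. With quantile normalization the alpha and beta median turned to 0.69, Cryba4 to 0.35 and Cryba1 to 0.44. Over genes of status OK the cornea median was -0.10 and the interferon median -0.12.

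Of the 109 genes named on stranded loci, 98 were past 2-fold. Of these 98, 2 changed sign with quantile normalization, 22 with equal totals including third-run loci, and none under the other alternatives run. Over all 109, whatever their size, 29 changed sign with equal totals including third-run loci, 7 with quantile normalization, 2 with equal medians and 2 with equal totals of stranded loci (Crybb2 to 0.16 and Bfsp2 to 0.41). Of the 40 list medians, 14 changed sign with equal totals including third-run loci, 12 with equal medians, 11 with equal totals of stranded loci, 7 over genes of status OK, 6 over members at 5 FPKM or more, 6 with quantile normalization, 3 with no filter on low values, and none under the other alternatives run.

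No paired analysis was possible because each group has 1 library and the labels carry no replicate numbers. Leaving out the N101D library of 2 months leaves no age difference in N101D, and leaving out any library leaves the age fit with no residual degrees of freedom. Values under 1 FPKM at 2 months rest on few fragments, so ratios of low genes are imprecise.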
